A study of Mus musculus with 3 samples.

Results

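Chemokines and chemokine receptors were examined in mouse CD4 T cells grown as Th17, Th22 or Th0 cells. The genes were a list of 32 symbols, of which 20 encode receptors and 12 encode ligands, and all 32 were measured among 19938 genes. The receptors include Gpr15, Gpr183 and Ltb4r1, whose ligands are other attractants. Each of them had 1 probe. The T cells came from spleens of B6.Cg-Tg(TcraTcrb)425Cbn/J mice, the OT-II strain, which carries a transgenic T cell receptor for an ovalbumin peptide. They were sorted as naive cells (CD4+CD25-CD62LhighCD44low). In all 3 groups the stimulus was that peptide, shown by T cell-depleted spleen cells of Il23a-/- mice. Th17 cells were given IL-6 and TGFβ, Th22 cells IL-6 alone, and Th0 cells no cytokine. Cells were recovered by MACS after 60 hours, and which cells that step selected is not given in the sources used here. The number of mice, and whether they were pooled, is not given in the sources used here.

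Chemokines are small secreted proteins that guide migrating cells, and their receptors are G protein-coupled receptors on the cells that follow them. Helper T cell subsets are known to carry different receptors, so that Th1-type cells follow CXCR3 ligands and Th17 cells follow CCL20 through CCR6. Activated T cells also secrete chemokines of their own, which recruit other leukocytes.

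Each group was measured on 1 array, so none of the differences below has a replicate check and no p-value is given. In the deposited table each value is relative to the median of its probe on the 3 arrays. Values are read here as log2, so 1 unit is a 2-fold difference. This scale shows which array was higher or lower for a gene and holds no expression level. A gene equal on all arrays therefore cannot be told from a gene that was not detected, and in bulk RNA fewer cells expressing a gene cannot be told from less RNA per cell. The spread between separate probes of 1 gene, the only repeat measurement, gave within-gene SDs of 0.12 log2 (Th17 minus Th22), 0.10 log2 (Th22 minus Th0) and 0.12 log2 (Th17 minus Th0) over 999 genes. It does not cover the spread between cultures. It was pooled over genes, including some with probes equal on all 3 arrays, which lowers it. No member contributed to it, since each had 1 probe. Of 7 measured CD4 T cell markers, Cd4 and Cd3e among them, none differed by 2-fold between any arrays, but 6 of them lay below their Th22 value in Th17. The median Th17 minus Th22 difference of the 7 was -0.31 log2, with Cd3d at -0.59 and Cd4 at -0.55 log2. Because levels are missing, the presence of these markers could not be checked.

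Between Th17 and Th22, 6 receptor genes were higher by 2-fold or more in Th17 and 2 were lower, and 1 ligand gene was higher and 3 were lower. After quantile normalization, which forces equal spread on the arrays, these counts were 4 and 2 receptor genes and 2 and 2 ligand genes. Over all 32 members this was 7 higher (21.9%) and 5 lower (15.6%), beside 1.1% of all genes higher and 1.5% lower, or 2.61% past 2-fold either way. Between Th17 and Th0, 6 members were higher (18.8%) and 4 lower (12.5%), beside 1.47% and 1.56% of all genes, 3.03% together. Here 5 of the 20 receptor genes were higher and 0 lower, and of the 12 ligand genes 1 was higher and 4 lower, which quantile normalization left as they were. Between Th22 and Th0, 3 members were higher (9.38%) and 2 lower (6.25%), beside 0.547% and 0.261% of all genes, 0.808% together. Quantile normalization gave 4 members higher and 3 lower in this comparison, and turned the split over all genes from 109 higher and 52 lower into 150 and 158. The median difference of the members was -0.01 log2 for Th17 against Th22 and 0 for each comparison with Th0, and that of all genes was 0 in all 3 comparisons. These shares describe a list drawn up with earlier results of the arrays known.

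**Figure D1:**
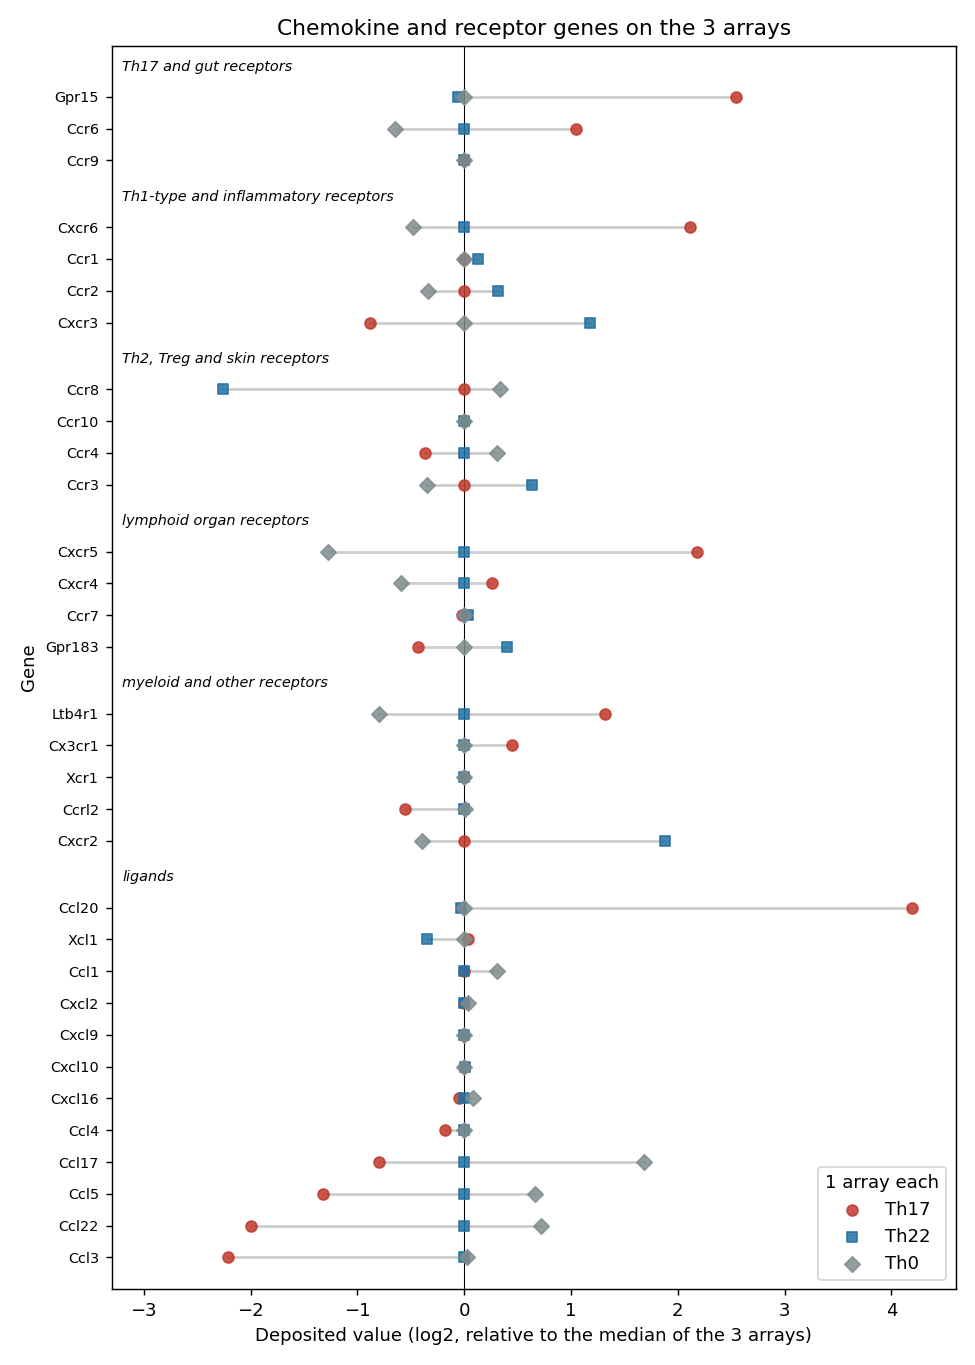
Deposited value (log2, relative to the median of the 3 arrays) of each of the 32 genes on the Th17, Th22 and Th0 arrays, grouped by role. Points are single arrays and the grey line joins the lowest to the highest. Ccl20 in Th17 (4.19) lies farthest right, Ccr8 in Th22 (-2.26) farthest left.

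In 13 of the 32 members (beside 3.7% of all genes) the highest and the lowest array were at least 2-fold apart. Th17 was the highest array for 6 of them, namely Ccl20, Ccr6, Cxcr5, Cxcr6, Gpr15 and Ltb4r1. Th22 was the highest for 2, Cxcr2 and Cxcr3. Th0 was the highest for 5, Ccr8, Ccl3, Ccl5, Ccl17 and Ccl22. These are 46.2%, 15.4% and 38.5% of the 13. Of the 738 genes with such a range, Th17 was highest for 41.1%, Th22 for 26.4% and Th0 for 32.5%. At the other end, 4 members were equal on all 3 arrays (Ccr9, Ccr10, Xcr1 and Cxcl9) and 5 on 2 of them (Ccr1, Ccl1, Ccl4, Cxcl2 and Cxcl10). These are 12.5% and 15.6% of the members, beside 40.3% and 24.3% of all probes.

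Among receptors known from Th17 and gut-homing T cells, Ccr6 and Gpr15 were highest in Th17. Ccr6 encodes the receptor of CCL20. Its value was 1.04 in Th17, 0 in Th22 and -0.65 in Th0, so the arrays lay in the order Th17, Th22, Th0, with gaps larger than the probe spread. Ccr6 was 2.06-fold higher in Th17 than in Th22, just past the threshold, and 3.22-fold higher than in Th0. After quantile normalization the Th17 minus Th22 difference was 0.69 log2 and no longer passed 2-fold. Gpr15 encodes a receptor that brings T cells to the colon. Its value was 2.55 in Th17, -0.06 in Th22 and 0 in Th0, so Th17 stood alone and Th22 and Th0 were closer than the probe spread. It was 6.09-fold higher in Th17 than in Th22 and 5.84-fold higher than in Th0. After quantile normalization these differences were 1.90 and 1.81 log2. Ccr9, the receptor gene of small-intestinal homing, was equal on all 3 arrays.

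Ccl20, the ligand gene of CCR6, showed the largest difference of any member in the values as deposited. Its value was 4.19 in Th17, -0.02 in Th22 and 0 in Th0. Th22 and Th0 were not distinguishable by the probe spread, and Th17 was 18.6-fold higher than Th22 and 18.3-fold higher than Th0. Among all genes this was rank 5 of the differences towards Th17 from Th22 and rank 10 from Th0. After quantile normalization the difference from Th22 was 3.36 log2 and that from Th0 3.32 log2. Ligand and receptor thus both passed 2-fold towards Th17, with the IL-6 culture between the others for Ccr6 but level with Th0 for Ccl20.

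The promoters of Ccl20 and Ccr6 are shown because this was the only one of 12 listed receptor and ligand pairs in which both genes passed 2-fold. Each sequence is the 250 bases before a start site in RefSeq on build GRCm38.p6, plus strand. Capitals mark the core motif of ROR factors, AGGTCA, and an NF-κB motif, GGNNTTTCC. Each was searched on both strands and is shown as its reverse complement where it lies on the opposite one. No match overlapped another. Ccl20 lies at chr1:83116516-83116765, and the Ccr6 start sites at chr17:8235793-8236042 and chr17:8242276-8242525.
Ccl20: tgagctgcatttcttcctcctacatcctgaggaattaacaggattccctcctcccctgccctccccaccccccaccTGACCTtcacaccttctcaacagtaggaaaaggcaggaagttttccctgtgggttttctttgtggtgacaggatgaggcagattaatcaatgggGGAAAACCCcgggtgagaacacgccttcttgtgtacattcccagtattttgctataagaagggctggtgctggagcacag
Ccr6, start 1: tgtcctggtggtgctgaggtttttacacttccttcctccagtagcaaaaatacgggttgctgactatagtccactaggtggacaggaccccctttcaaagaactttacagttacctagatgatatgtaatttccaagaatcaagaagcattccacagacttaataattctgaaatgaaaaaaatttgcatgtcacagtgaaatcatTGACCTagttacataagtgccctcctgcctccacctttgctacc
Ccr6, start 2: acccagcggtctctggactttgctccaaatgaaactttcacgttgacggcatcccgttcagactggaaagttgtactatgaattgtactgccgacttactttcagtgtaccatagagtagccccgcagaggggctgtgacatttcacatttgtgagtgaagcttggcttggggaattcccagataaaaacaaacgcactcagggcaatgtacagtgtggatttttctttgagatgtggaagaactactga
The ROR core motif occurred once before Ccl20 and once before the start of Ccr6 numbered 1, and the NF-κB motif once before Ccl20. In windows of this length the ROR core occurred in 14.0% of all 32851 promoters and the NF-κB motif in 4.93%. The matches are letters in these windows, not binding sites.

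Cxcr3 and Cxcr6 are both known from Th1-type cells and lay in opposite directions. Cxcr3 encodes the receptor of CXCL9 and CXCL10. Its value was -0.89 in Th17, 1.18 in Th22 and 0 in Th0, so Th22 was highest and Th17 lowest. It was 4.18-fold lower in Th17 than in Th22 and 2.26-fold higher in Th22 than in Th0. Th17 was 1.85-fold lower than Th0, inside the threshold. Cxcr6, the receptor gene of the membrane-bound chemokine CXCL16, had 2.11 in Th17, 0 in Th22 and -0.48 in Th0. It was 4.33-fold higher in Th17 than in Th22 and 6.02-fold higher than in Th0, and 1.39-fold higher in Th22 than in Th0. After quantile normalization Cxcr6 was 1.44 log2 higher in Th17 than in Th22 and 1.95 log2 higher than in Th0, still past 2-fold. Ccr2, a receptor of inflammatory monocytes and effector T cells, was 1.57-fold higher in Th22 than in Th0, and Ccr1 differed by at most 1.09-fold.

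Of the receptors associated with Th2 cells, regulatory T cells and skin, Ccr8 was the one past 2-fold. Ccr8 encodes the receptor of CCL1. It had 0 in Th17, -2.26 in Th22 and 0.33 in Th0, so Th22 alone was low. Ccr8 was 4.79-fold higher in Th17 than in Th22. Against Th0 it was 6.03-fold lower in Th22, where it was rank 6 of all genes lower in Th22. Th17 and Th0 lay 1.26-fold apart. After quantile normalization these differences were larger, 3.89 log2 for Th17 minus Th22 and -4.32 log2 for Th22 minus Th0. Ccr4, the receptor gene of CCL17 and CCL22, had -0.37 in Th17, 0 in Th22 and 0.31 in Th0, a step of at most 1.60-fold. Ccr3, the eotaxin receptor gene, was 1.97-fold higher in Th22 than in Th0, just inside the threshold, and past it after quantile normalization (1.23 log2). Ccr10, a skin-homing receptor gene, was equal on all 3 arrays.

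Among receptors that place cells within lymphoid organs, Cxcr5 passed 2-fold in all 3 comparisons, and Ccr7 differed by at most 1.04-fold. Cxcr5 encodes the receptor that leads follicular helper T cells to B cell follicles. Its value was 2.18 in Th17, 0 in Th22 and -1.28 in Th0, and each step exceeded 2-fold. It was 4.54-fold higher in Th17 than in Th22, 2.43-fold higher in Th22 than in Th0, and 11-fold higher in Th17 than in Th0. After quantile normalization the difference of Th17 from Th22 was 1.5 log2. Ccr7, which directs naive T cells to lymph nodes, had -0.02 in Th17, 0.03 in Th22 and 0 in Th0. Cxcr4, the CXCL12 receptor gene, was 1.80-fold higher in Th17 than in Th0 and 1.5-fold higher in Th22 than in Th0. Gpr183, a receptor gene for oxysterols, was 1.78-fold lower in Th17 than in Th22.

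**Figure D2:**
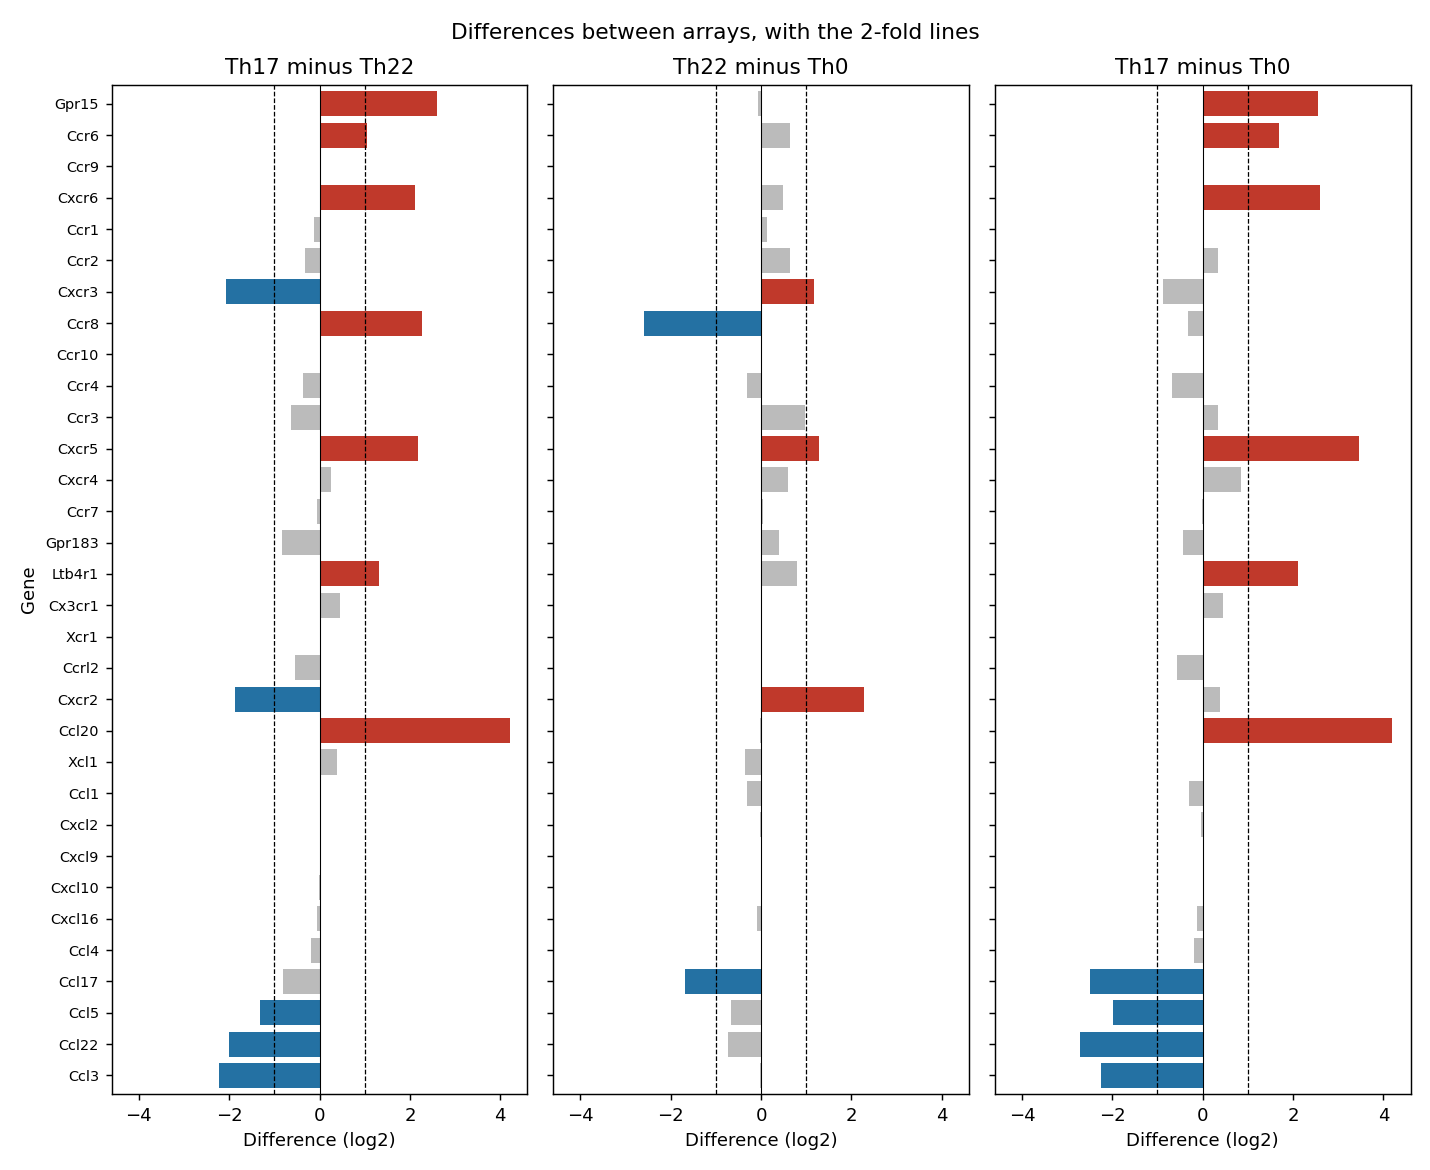
Difference (log2) of each of the 32 genes in Th17 minus Th22, Th22 minus Th0 and Th17 minus Th0, with dashed lines at 2-fold. Bars in red are at least 2-fold higher and bars in blue at least 2-fold lower in the group named before the minus, and 12, 5 and 10 genes pass the lines. The panels against Th0 share the Th0 array.

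Receptors better known from myeloid cells included the pair Cxcr2 and Ltb4r1, which differed in their pattern. Cxcr2, the neutrophil receptor gene for CXCL2 and related chemokines, had 0 in Th17, 1.88 in Th22 and -0.39 in Th0. It was 3.68-fold lower in Th17 than in Th22 and 4.83-fold higher in Th22 than in Th0, where it was rank 15 of all genes higher in Th22. Cxcr1, a close relative that is not a member, lay the same way, 2.68-fold lower in Th17 than in Th22 and 4.57-fold higher in Th22 than in Th0, and how far their probes share signal was not tested. Beside this, 4 of 7 neutrophil markers (S100a8, S100a9, Mpo and Camp) were equal on all 3 arrays, as were 40.3% of all probes. Elane and Ngp differed by at most 0.15 log2. Ly6g was 19.5-fold higher in Th22 than in Th0 and 14.6-fold higher in Th17 than in Th0. The summed value of the 7 markers was 0.01 in Th17, 0.42 in Th22 and -3.72 in Th0. Nearly all of the Th22 and Th0 sums came from Ly6g, which had 0.42 in Th22 and -3.87 in Th0. The part of neutrophils in the Cxcr2 result was not tested.

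Ltb4r1 encodes the high-affinity receptor of leukotriene B4, a lipid attractant. It had 1.32 in Th17, 0 in Th22 and -0.79 in Th0, in the same order as Ccr6. It was 2.50-fold higher in Th17 than in Th22 and 4.34-fold higher than in Th0. The difference from Th22 fell short of 2-fold after quantile normalization, at 0.87 log2. Ccrl2, a non-signalling receptor that binds chemerin, was 1.46-fold lower in Th17 than in Th22. Cx3cr1, the fractalkine receptor gene, was 1.36-fold higher in Th17 than in Th22, and Xcr1, known from cross-presenting dendritic cells, was equal on all 3 arrays.

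Apart from Ccl20, the ligand genes that passed 2-fold were lower in Th17. Ccl3 encodes MIP-1α, a ligand of CCR1. It had -2.22 in Th17, 0 in Th22 and 0.02 in Th0, so only Th17 stood apart, 4.64-fold lower than Th22 and 4.72-fold lower than Th0. After quantile normalization the difference of Th17 from Th22 was -1.29 log2 and that from Th0 -1.30 log2. Ccl4, which encodes the related MIP-1β, was 1.13-fold lower in Th17 than on the other arrays, on which it was equal. Ccl5 encodes RANTES and had -1.33 in Th17, 0 in Th22 and 0.66 in Th0. It was 2.51-fold lower in Th17 than in Th22 and 3.96-fold lower than in Th0, and 1.58-fold lower in Th22 than in Th0. After quantile normalization the Th17 minus Th22 difference of Ccl5 was -0.81 log2, inside the threshold. Of 6 CD8 T and NK cell markers, cells that also make CCL3 and CCL5, Cd8b1 was 2.20-fold lower in Th17 than in Th22 and 2.61-fold lower than in Th0, and Ncr1, Klrb1c and Klra8 were equal on all 3 arrays. Cd8a, which encodes the other CD8 chain, had 0 in Th17, -0.15 in Th22 and 0.05 in Th0, and Klrk1 had -0.23 in Th17, 0 in Th22 and 0.57 in Th0. The responding cells had been sorted as CD4+, and the spleen cells given with them had been depleted of T cells. The summed value of these 6 was -1.36 in Th17, most of it from Cd8b1, -0.15 in Th22 and 0.87 in Th0, and their part in the result was not tested.

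Ccl17 and Ccl22, which encode the ligands of CCR4, lay in the order Th0, Th22, Th17. Ccl17 had -0.80 in Th17, 0 in Th22 and 1.69 in Th0. Against Th0 it was 3.22-fold lower in Th22 and 5.60-fold lower in Th17, and it was 1.74-fold lower in Th17 than in Th22. Ccl22 had -1.99 in Th17, 0 in Th22 and 0.72 in Th0. It was 3.98-fold lower in Th17 than in Th22, and against Th0 it was 6.58-fold lower in Th17 and 1.65-fold lower in Th22. In the values as deposited the larger step was thus between Th22 and Th0 for Ccl17 and between Th17 and Th22 for Ccl22. After quantile normalization the Ccl22 difference was -1.14 log2 for Th17 minus Th22 and -2.12 log2 for Th17 minus Th0. For Th22 minus Th0 it was -0.98 log2, so the steps of Ccl22 were then nearly equal.

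Dendritic cells are a known source of CCL17 and CCL22, and antigen-presenting cells were present in the cultures before the cells were recovered by MACS. Equality on all 3 arrays held for 40.3% of all probes. Of 15 measured monocyte, macrophage and dendritic cell markers none differed by 2-fold. Equal on all 3 arrays were 9 of them (Csf1r, Itgam, Itgax, Cd14, Siglech, Spi1, Flt3, Cd209a and Zbtb46). Their summed value was 0.04 in Th17, 0.20 in Th22 and 0.30 in Th0. Of 7 B cell markers 5 were equal on all 3 arrays, and the sum was 0 in Th17, -0.07 in Th22 and -0.16 in Th0. Of 5 class II presentation genes Cd74 was 2.28-fold lower in Th17 than in Th22 and 3.93-fold lower than in Th0. H2-Ab1 had -0.31 in Th17, 0.68 in Th22 and 0 in Th0, so it was higher in Th22 than in Th0, where Cd74 was lower. H2-Aa and H2-Eb1 differed by at most 0.20 log2 and Ciita was equal on all 3 arrays. The sum of these 5 was -1.74 in Th17, 0.68 in Th22 and 0.88 in Th0. The part of these cells in the Ccl17 and Ccl22 results was not tested.

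The Ccl17 and Ccl22 promoters are shown because these are neighbouring members on chromosome 8 that were both lower in Th17 than in Th0. They are the 250 bases before the RefSeq start sites on GRCm38.p6, plus strand, at chr8:94810203-94810452 for Ccl17 and chr8:94745434-94745683 for Ccl22, with the same motifs in capitals.
Ccl17: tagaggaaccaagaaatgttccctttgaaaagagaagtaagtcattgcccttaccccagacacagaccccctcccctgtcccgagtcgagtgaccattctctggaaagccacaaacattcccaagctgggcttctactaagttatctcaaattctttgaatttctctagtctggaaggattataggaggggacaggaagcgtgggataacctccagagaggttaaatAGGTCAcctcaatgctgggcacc
Ccl22: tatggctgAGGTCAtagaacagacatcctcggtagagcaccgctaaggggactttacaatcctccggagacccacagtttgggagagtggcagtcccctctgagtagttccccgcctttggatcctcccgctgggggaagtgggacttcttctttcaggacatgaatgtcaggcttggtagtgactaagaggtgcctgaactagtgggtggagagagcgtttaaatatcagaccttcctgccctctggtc
Each held the ROR core motif once and the NF-κB motif 0 times. The ROR core therefore stood before Ccl20 and Ccr6, which were higher in Th17, and before Ccl17 and Ccl22, which were lower. Among the 26 members with a promoter sequence, 7 held it, and besides these 4 they were Ccl3 and Cxcr2, lower in Th17 than in Th22, and Cxcl9, equal on all 3 arrays. The ROR core occurred in 14.0% of all 32851 promoters. Members were counted over any of their start sites and promoters as single windows, so the units differ.

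The remaining ligand genes stayed inside 2-fold in all comparisons. Xcl1, which encodes lymphotactin, had 0.03 in Th17, -0.35 in Th22 and 0 in Th0, so Th22 lay 1.28-fold below Th0. After quantile normalization that difference was -1.05 log2 and passed 2-fold, as did Th17 minus Th22 at 1.08 log2. Ccl1, the CCR8 ligand gene, was 1.23-fold lower in Th17 and in Th22 than in Th0. Cxcl16 differed by at most 1.09-fold and Cxcl2, a neutrophil attractant gene, by at most 1.02-fold. Of the interferon-induced CXCR3 ligand genes, Cxcl10 differed by at most 1.01-fold and Cxcl9 was equal on all 3 arrays.

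Receptor genes and the genes of their ligands were also set side by side. Of 12 receptor and ligand pairs 1, Ccr6 with Ccl20, had both genes past 2-fold towards Th17 from Th22, and 0 had both lower. In 5 pairs the receptor gene alone passed 2-fold, in 4 the ligand gene alone and in 2 neither. Between Th17 and Th0 the same pair was higher, the receptor gene alone passed in 1 pair, the ligand gene alone in 5 and neither in 5. Between Th22 and Th0 the receptor gene alone passed in 4 pairs, the ligand gene alone in 1 and neither in 7. After quantile normalization Ccr6 fell short of 2-fold for Th17 minus Th22, so that this pair passed for Th17 minus Th0 alone. Some genes appear in several pairs, so the pairs are not independent. How many pairs would pass together if their genes were unrelated was not worked out, so the count is not read as few or many. Xcr1 and Cxcl9 were equal on all 3 arrays, so their pairs could not pass together.

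**Figure D3:**
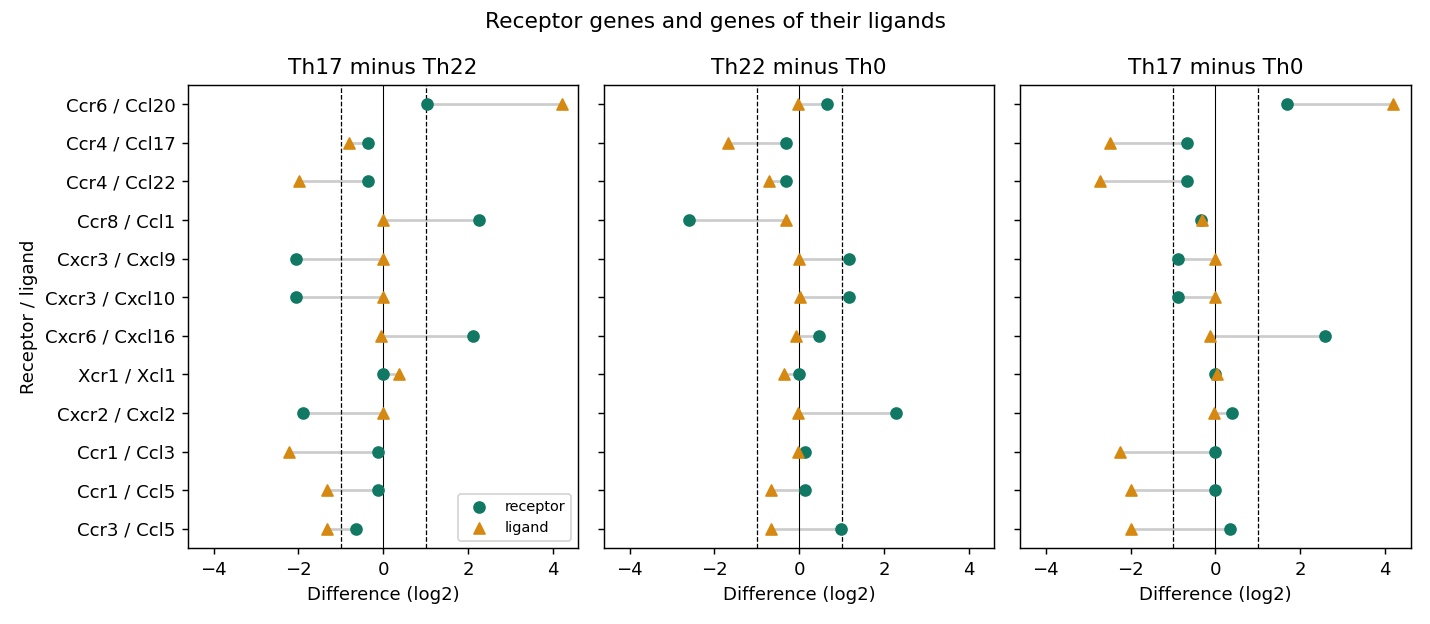
Difference (log2) of receptor genes (circles) and of genes of their ligands (triangles) for 12 pairs in Th17 minus Th22, Th22 minus Th0 and Th17 minus Th0, with dashed lines at 2-fold. Ccr6 and Ccl20 both lie past the line towards Th17 in the panels of Th17 minus Th22 and Th17 minus Th0, and Cxcr3 and Cxcr6 lie past the lines in the panel of Th17 minus Th22 with their ligand genes near 0.

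Members that neighbour each other on a chromosome shared a direction in some cases and not in others. On chromosome 9 the members Ccr9, Cxcr6, Xcr1, Ccr1, Ccr3 and Ccr2 follow in that order in RefSeq. Cxcr6 was 2.11 log2 higher in Th17 than in Th22, and Ccr1, Ccr3 and Ccr2 were lower by 0.13, 0.63 and 0.31 log2. In Th22 minus Th0, Cxcr6, Ccr1, Ccr3 and Ccr2 were all higher, by 0.48, 0.13, 0.98 and 0.65 log2. Ccr9 and Xcr1, beside Cxcr6, were equal on all 3 arrays. On chromosome 11 the members Ccl5, Ccl3 and Ccl4 follow each other, and their Th17 minus Th22 differences were -1.33, -2.22 and -0.18 log2. Their Th17 minus Th0 differences were -1.99, -2.24 and -0.18 log2, so all were lower in Th17 in both comparisons, by unlike amounts.

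Transcription factors with known links to these genes were set beside them. T-bet, encoded by Tbx21, is known to activate Cxcr3. Tbx21 had -2.66 in Th17, 0 in Th22 and 1.18 in Th0, so Th17 was lowest for both genes, but Tbx21 was highest in Th0 and Cxcr3 in Th22. Bcl6, a factor of follicular helper cells, had 1.03 in Th17, 0 in Th22 and -0.98 in Th0, the order seen for Cxcr5. The aryl hydrocarbon receptor is known to promote Gpr15, and Ahr had 1.85 in Th17, 0 in Th22 and -0.23 in Th0, with Th17 highest for both. Rora had 1.60 in Th17, 0 in Th22 and -1.39 in Th0, the order of Ccr6. The list's other factors past 2-fold between Th17 and Th22 were Foxp3, Maf, Gata3 and Stat4. Foxp3 was 12.6-fold higher and Maf 11.4-fold higher in Th17 than in Th22. Gata3, the Th2 factor gene, had -2.65 in Th17, 0 in Th22 and 1.81 in Th0, an order unlike that of Ccr8, for which Th22 was lowest. Stat4 was 2.04-fold lower in Th17 than in Th22. The part of these factors in the values of the members was not tested. Th17 was highest for 41.1% of the 738 genes with a 2-fold range, and the share of genes with each full order was not counted. Of 13 measured factors, 5 were at least 2-fold higher and 3 lower in Th17 than in Th22 (61.5% together, beside 2.61% of all genes), on a list chosen with earlier results known.

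Of the other genes of the pathway, 4 of 15 related receptors (26.7%), 3 of 17 adhesion and selectin genes (17.6%), 1 of 36 signalling genes (2.78%) and 0 of 22 chemokines passed 2-fold in some comparison, beside 3.7% of all genes. Of the chemokines 15 were equal on all 3 arrays, beside 40.3% of all probes. Among receptor signalling genes, such as the G protein, Rgs and Dock2 genes, Gng2 passed, with Th17 2.46-fold above Th0. In the list of related receptor genes, 2 passed 2-fold towards Th17 from Th22 and 1 towards Th22. Cmklr1, the chemerin receptor gene, was 4.73-fold higher in Th17 than in Th22 and 4.58-fold higher than in Th0. S1pr3, a sphingosine 1-phosphate receptor gene, was 2.47-fold higher in Th17 than in Th22 and 3.13-fold higher than in Th0, and the lower one was Cxcr1. S1pr1, needed for exit from lymph nodes, was 2.33-fold higher in Th22 than in Th0 and 2.78-fold higher in Th17 than in Th0. Of 17 adhesion and selectin genes Itgae, the CD103 gene, was 2.59-fold higher in Th17 than in Th22. Against Th0, Gcnt1 was 3.61-fold, Itgae 2.27-fold and Fut7 2.12-fold higher in Th17, and Gcnt1 was 2.30-fold higher in Th22. Gcnt1 and Fut7 encode enzymes that build selectin ligands.

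**Figure D4:**
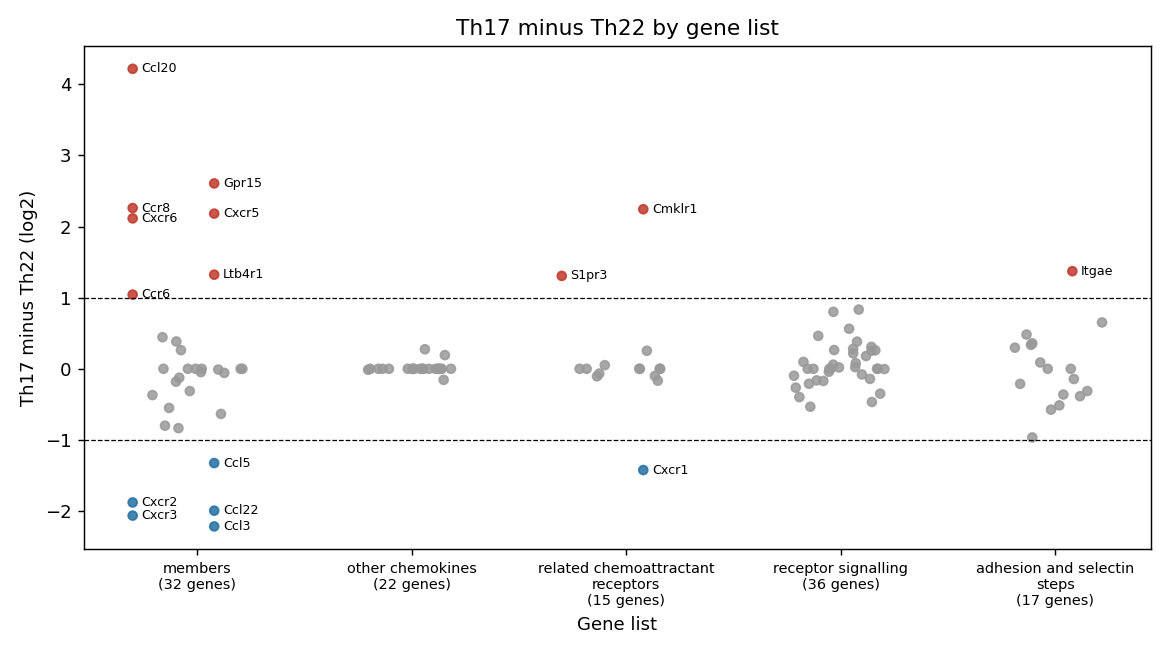
Th17 minus Th22 difference (log2) of each gene in the members and in 4 related lists, with dashed lines at 2-fold. Genes past the lines are named: 12 of 32 members, 0 of 22 other chemokines, 3 of 15 related receptors, 0 of 36 signalling genes and 1 of 17 adhesion genes.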

How the data were processed

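Total RNA of 3 samples was measured on single-colour, biotin-labelled Affymetrix arrays, 1 per group, and grouped by the T helper subset in the labels. The deposited values were read as log2 differences from each probe's median over the 3 arrays, because that median was exactly 0 for all 28853 probes. Not given in the sources used here are the log base, the direction, and the authors' probe summary, normalization and software. Base 2, and higher values as higher expression, were assumed. Exactly equal values occurred on all 3 arrays for 11627 probes and on 2 arrays for 7007, of which the remaining array was higher for 3390 and lower for 3617.

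Probes with 1 symbol (21789) were named from the platform annotation, with symbols updated by Entrez identifier through a RefSeq table of GRCm38.p6 (21698 matched), and the mean per gene was taken. Left out of the gene means were 1621 probes with several symbols and 5443 unlisted ones. Genes at least 2-fold apart were counted, with no test, since there was 1 array per group. The counting step was checked for coding errors on simulated arrays with planted differences, which says nothing about the spread between cultures. The number of arrays limits the precision. Promoter sequences came from RefSeq, in which 26 of the 32 members matched by symbol. Alternatives were quantile normalization, a median shift, other probe rules, natural logs and thresholds of 1.5-fold and 3-fold. The rule for named genes was every member, and listed genes past 2-fold in any comparison. Genes named as equal or within 2-fold from the other lists were chosen after their values were seen. The members and lists were chosen with earlier results of these data known. Python 3.11.15, pandas 2.3.3 and numpy 2.4.6 were used.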

Additional observations from a re-analysis of the deposited data

How the results depend on the processing

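With 1 array per group no sample could be left out. No paired analysis was possible because the labels give each group a single sample. None of the 96 member differences (32 genes in 3 comparisons) changed sign under quantile normalization or any other alternative. This outcome was fixed in advance and is no check of direction. Each member has its middle array at 0, and quantile normalization kept values above and below 0 on their sides. The other alternatives rescale the member differences or leave them as they are. For Th22 against Th0, members at least 2-fold higher numbered 3, against 8 at 1.5-fold, 1 at 3-fold and 5 with natural logs, and members lower numbered 2, against 4 at 1.5-fold. For Th17 against Th22, members lower numbered 5, against 8 at 1.5-fold. These follow from the threshold or the log base itself. The other counts of members stayed within 1.5 times. Setting the median of differing probes to 0 left every member difference as it was, so it was no check of the members. Each member has 1 probe, so taking the probe with the largest difference could not move any of them. Adding probes with several symbols also left every member difference unchanged. Quantile normalization moved 37 of the 96 differences by more than the probe spread. It took Ccl5, Ccr6 and Ltb4r1 under 2-fold and Xcl1 past it for Th17 against Th22, took Ccr3 and Xcl1 past it for Th22 against Th0, and changed no member's call for Th17 against Th0. Over all genes it changed the split for Th22 against Th0 from 109 higher and 52 lower to 150 and 158, and the cause was not tested. With natural logs all genes past 2-fold were 340 higher and 519 lower for Th17 against Th22, 233 and 110 for Th22 against Th0, and 490 and 531 for Th17 against Th0, in place of 220 and 300, 109 and 52, and 293 and 311. Signal over background is unknown, so which members were detected could not be judged.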

Other observations

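Further motifs were searched on both strands in the 250 bases before the RefSeq start sites of the 26 members with a promoter sequence, among 32851 promoters. The motifs were chosen after the values were seen. A member counted if any of its start sites had a match, while each percentage is over single start-site windows. The units differ, and members with several start sites, such as Ccr6, had more chances of a match. The GATA motif AGATAA was found for 7 members (Ccl17, Ccr2, Ccr3, Ccr6, Ccr8, Ccrl2 and Cxcl10) and in 9.99% of all promoters. The core of the Maf motif, TGCTGA, was found for 6 members (Ccr3, Ccr6, Ccr8, Cxcl10, Cxcr3 and Xcl1) and in 16.1% of all promoters. The T-box core AGGTGT was found for 4 members (Ccl20, Cxcr2, Gpr15 and Ltb4r1) and in 11.8% of all promoters, but not for Cxcr3. The AP-1 motif TGANTCA was found for 4 members (Ccr3, Ccr4, Cxcl10 and Gpr15) and in 6.75% of all promoters. The STAT motif TTCNNNGAA was found for 2 members (Ccl17 and Ccr6) and in 7.02% of all promoters. The NF-κB motif GGNNTTTCC was found for 6 members (Ccl20, Ccr3, Ccrl2, Cxcl2, Cxcl9 and Cxcl10) and in 4.93% of all promoters. In Cxcl10 the AP-1 match overlaps a Maf match, and no other matches of different motifs overlap in these members. A match is a run of letters and not a binding site.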
